A study of Mus musculus with 14 samples.

Results

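The integrated stress response and amino acid supply genes were 35 named mouse genes: transcription factors of the response, its feedback and stress effectors, enzymes and transporters of amino acid metabolism, and secreted or surface products. They were chosen by name, with earlier results of these data known. Of the 35, 33 had a named probe set among the 18193 genes tested. Pycr1 and Gdf15 were not analysed here. Where a gene had several probe sets, the one with the highest average signal across the arrays was read.

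The integrated stress response begins when a kinase phosphorylates the translation factor eIF2, which lowers general protein synthesis while the mRNA of the transcription factor ATF4 is translated more. ATF4 and its partners then switch on genes for amino acid uptake, serine synthesis and mitochondrial one-carbon metabolism, and genes that feed back on the response, such as those for the eIF2 phosphatase subunit GADD34 and the pseudokinase TRB3. Mitochondrial faults, endoplasmic reticulum stress, lack of amino acids and lack of heme all feed into this pathway, and prolonged activity through the factor CHOP is linked to cell death in neurons.

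The study measured ribosome-bound mRNA of midbrain dopaminergic neurons in mice whose dopaminergic neurons lack transferrin receptor 1 (Tfr1, gene symbol Tfrc), the receptor that imports transferrin-bound iron. RNA was pulled down from ventral midbrain lysates through a tagged ribosomal protein (RiboTag), amplified from 50 ng and read on Affymetrix mouse arrays as log2 signals. The labels call 3 weeks early and 10 weeks late in the loss of these neurons. All mice were F2 of 129Sv and C57BL/6 and carried the RiboTag background. The Tfr1-null mice had the receptor deleted in dopaminergic neurons alone, and the controls were heterozygous for the Tfr1 allele, so the comparison is not with wild-type mice. The 3-week groups held 3 controls and 4 Tfr1-null libraries, and the 10-week groups 4 controls and 3 Tfr1-null libraries. Nothing in the labels says that libraries of a group came from separate mice, so p-values measure the spread between these libraries, which may be technical. The sources used here do not name the Cre driver. In pulled-down RNA of this kind, fewer dopaminergic cells and less RNA per cell cannot be told apart.

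The medians of the arrays were 6.41 to 6.47 at 3 weeks but 7.36 to 7.43 at 10 weeks, so levels are compared within an age only. The 16 dopaminergic markers, among them Th and Slc6a3, were above the 25th percentile of the array, taken here as background, in at least 1 library each. By sex-linked genes 1 of 7 libraries at 3 weeks, control 2, and 7 of 7 at 10 weeks had a male pattern, so age and sex cannot be told apart. The array's 5′ control probe set for the receptor mRNA read 9.50 to 9.59 in controls and 6.88 to 7.73 in Tfr1-null libraries 2 to 4 at 3 weeks, and 9.63 to 10.44 in controls 2 to 4 and 7.79 to 9.29 in Tfr1-null libraries at 10 weeks. The 3′ control probe set went the other way, with 9.19 to 9.29 against 10.99 to 11.25 at 3 weeks and 8.56 to 9.84 against 11.45 to 11.63 at 10 weeks.

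A pair of libraries went against their labels on these probe sets. The library labelled Tfr1-null 3 weeks 1, whose source name reads control, had 9.67 at the 5′ and 9.19 at the 3′ probe set. The library labelled control 10 weeks 1 had 8.55 and 11.31. Each comparison was therefore made both over the 14 libraries, by their labels, and over the 12 that remain without this pair. That choice was made after the receptor values were seen, and the pair also lay with the other genotype on the stress genes. On 31 of the 33 genes the library labelled Tfr1-null 3 weeks 1 was nearer the control mean than the mean of the other Tfr1-null libraries. Over all genes that share was 63.8%. The library labelled control 10 weeks 1 was nearer the Tfr1-null mean on 28 of the 33 (all genes 58.4%).

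Of the 35 genes, 31 had a promoter window in RefSeq, from 250 bases before to 50 after the start. The composite element that ATF4 binds together with C/EBP factors was searched as TGATGNAA on both strands, where a match on the other strand reads TTNCATCA. It was found in 10 of the 31 genes (32.3%), and in 1219 of 27025 genes with a window (4.51%). The genes were listed as part of the response that ATF4 drives, so a share above that of all genes may follow from the choice. The carriers were Chac1, Trib3, Slc7a11, Asns, Fgf21, Nupr1, Slc1a4, Pycr1, Vldlr and Got1. The stretches below belong to carriers with different calls: with the 12 libraries Chac1 and Vldlr passed the test (limma, adjusted p under 0.05) at both ages, Got1 at 10 weeks, and Asns, Nupr1 and Slc7a11 at neither. With all 14 libraries Got1 at 10 weeks alone passed among these. They are from GRCm38.p6, 5′ to 3′ on the strand of the gene, with the match in capitals.
Chac1, chr2:119351023-119351082, plus strand: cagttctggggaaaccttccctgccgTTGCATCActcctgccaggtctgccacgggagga
Vldlr, chr19:27216794-27216853, plus strand: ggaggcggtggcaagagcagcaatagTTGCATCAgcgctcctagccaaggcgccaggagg
Got1, chr19:43524674-43524733, minus strand: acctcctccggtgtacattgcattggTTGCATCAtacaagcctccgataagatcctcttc
Asns, chr6:7693210-7693258, minus strand: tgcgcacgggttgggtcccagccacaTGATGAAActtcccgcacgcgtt
Nupr1, chr7:126625547-126625606, minus strand: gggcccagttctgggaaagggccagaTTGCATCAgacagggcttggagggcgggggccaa
Slc7a11, chr3:50443627-50443705, minus strand: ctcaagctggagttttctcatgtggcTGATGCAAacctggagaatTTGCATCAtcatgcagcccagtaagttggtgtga

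In Asns the match began 23 bases before the start, in Got1 102, in Nupr1 110, in Chac1 193 and in Vldlr 200. Slc7a11 held matches at 66 and 47 bases before the start, on opposite strands. These are matches of letters, not measured binding. Among the 29 measured genes with a window, 3 of the 9 carriers and 8 of the 20 others passed the test at 3 weeks with the 12 libraries (all genes 1.84%), and 4 and 10 did so at 10 weeks (all genes 11.1%). With all 14 libraries none passed at 3 weeks and Got1, a carrier, alone at 10 weeks. The median 12-library difference of carriers was 0.40 at 3 weeks and 0.49 at 10 weeks, against 0.67 and 0.61 in the others.

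In mice lacking Tfr1 most of these genes read higher at both ages once the doubtful pair was left out. With the 12 libraries, limma called 13 of the 33 genes at 3 weeks at adjusted p under 0.05: 12 higher, where 0.682% of all genes were called higher, and 1 lower, where 1.16% were called lower. At 10 weeks it called 16 of 33, all 16 higher, where 4.73% of all genes were called higher and 6.34% lower. The background in either direction was 1.84% at 3 weeks and 11.1% at 10 weeks. The median difference, Tfr1-null minus control, was 0.63 log2 units at 3 weeks and 0.60 at 10 weeks, where the median of all genes tested was 0.01 and -0.01, and 30 of 33 differences lay above 0 at each age (all genes 53.6% and 47.8%). Every Tfr1-null library read above every control in 27 of 33 genes at 3 weeks (81.8%, all genes 13.3%) and in 20 of 33 at 10 weeks (60.6%, all genes 9.87%). When the spread was estimated from the libraries of 1 age alone, 18 genes were called at 3 weeks and 7 at 10 weeks. The share of all genes called under that setting is not given here, so these counts have no background beside them.

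With all 14 libraries as labelled, limma called 0 of 33 genes at 3 weeks, where 0.0% of all genes were called. At an unadjusted p under 0.05 it gave 11 of 33, against 4.67% of all genes. At 10 weeks 1 of 33 was called, Got1, against 1.21% of all genes, and an unadjusted p under 0.05 gave 11 of 33, against 19.9%. The direction was largely kept: 30 of 33 differences lay above 0 at each age (all genes 53.8% at 3 weeks and 47.3% at 10 weeks), with a median of 0.46 at 3 weeks and 0.41 at 10 weeks. In 9 of 33 genes at 3 weeks (27.3%, all genes 3.64%) all 4 Tfr1-null libraries read above all controls, and in 2 of 33 at 10 weeks (6.06%, all genes 4.48%) all Tfr1-null libraries read above all 4 controls. Values below are from the 12 libraries unless 14 are named, and library values are listed in order of replicate number. Counts by role below are to be read beside the shares of all genes called in either direction, 1.84% at 3 weeks and 11.1% at 10 weeks.

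**Figure D1:**
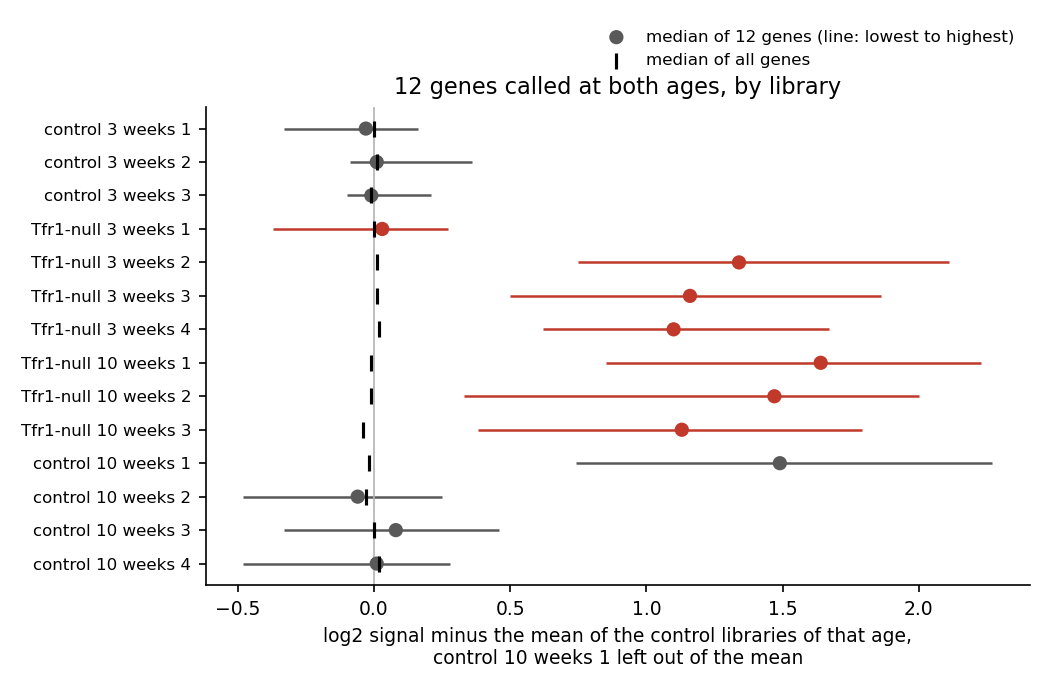
Median over the 12 genes called at both ages of log2 signal minus the control mean of that age (dot; line from lowest to highest gene), for each of the 14 libraries, with grey for libraries labelled control, red for those labelled Tfr1-null and a black tick for the median of all genes. The library labelled Tfr1-null 3 weeks 1 sits at 0.03 among the controls (-0.06 to 0.08), and the library labelled control 10 weeks 1 sits at 1.49 among the Tfr1-null libraries (1.10 to 1.64). The 12 genes were picked by their calls in the 12 other libraries, so a gap between those groups follows from the choice. Over all 33 genes the medians were -0.03 to 0.05 in those controls and 0.44 to 0.83 in those Tfr1-null libraries. The doubtful pair had 0.04 (Tfr1-null 3 weeks 1) and 0.87 (control 10 weeks 1).

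**Figure D2:**
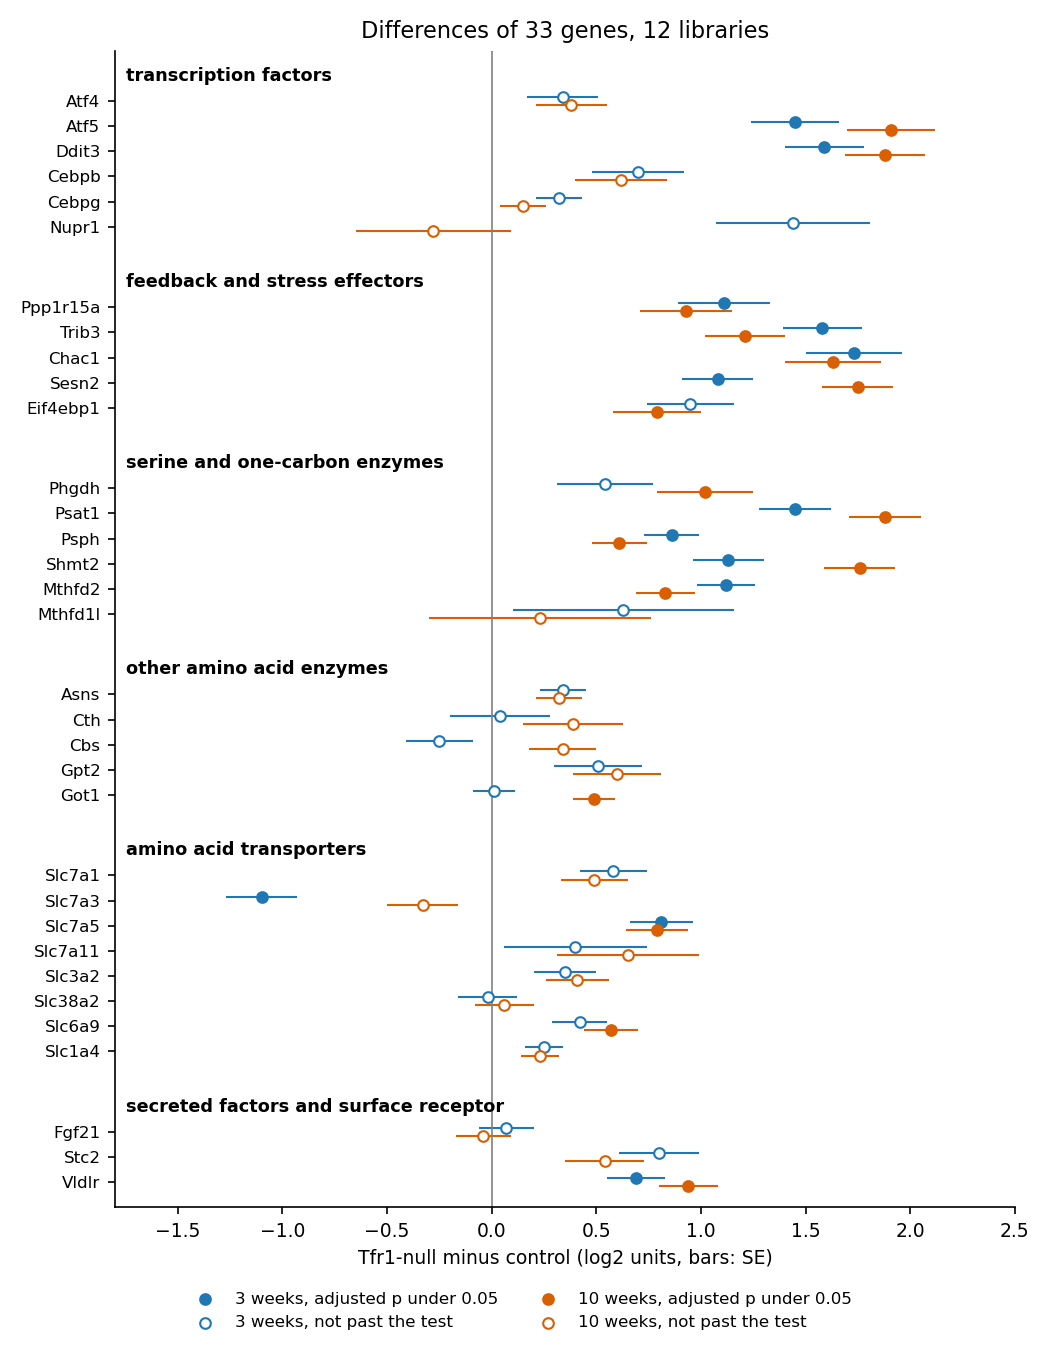
Tfr1-null minus control in log2 units with SE for the 33 genes by role, from the 12 libraries (blue: 3 weeks; orange: 10 weeks; filled: adjusted p under 0.05). Filled points lie to the right of 0 except Slc7a3 at 3 weeks, which lies at -1.10.

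Among the 6 transcription factors, Ddit3 and Atf5 rose at both ages and the other 4 did not pass the test. Ddit3 encodes CHOP, the factor tied to the harmful arm of the response. At 3 weeks Ddit3 read 10.03, 10.25 and 10.16 in controls, 12.25, 11.61 and 11.36 in Tfr1-null libraries 2 to 4, and 10.09 in the library labelled Tfr1-null 1. The 10-week values were 10.73, 10.94 and 10.79 in controls 2 to 4, 12.69, 12.82 and 12.60 in Tfr1-null libraries, and 12.82 in the library labelled control 1. The groups of 12 did not overlap at either age, and each doubtful library lay within or beside the other genotype. The difference was 1.59 (SE 0.19, adjusted p = 0.00124) at 3 weeks and 1.88 (SE 0.19, adjusted p = 0.000229) at 10 weeks, or 3.02-fold and 3.69-fold.

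Atf5 encodes a relative of ATF4 that is itself translated more under eIF2 phosphorylation and acts in the mitochondrial stress response. Its 3-week signals were 8.29, 8.09 and 8.15 in controls and 9.51, 9.81 and 9.56 in Tfr1-null libraries 2 to 4, with 7.81 in the library labelled Tfr1-null 1. Its 10-week signals were 9.44, 9.88 and 8.94 in controls 2 to 4 and 11.65, 11.20 and 11.16 in Tfr1-null libraries, with 11.69 in the library labelled control 1. Controls at 10 weeks were spread over almost 1 log2 unit and still lay below all Tfr1-null libraries. The Atf5 difference was 1.45 (SE 0.21, adjusted p = 0.00469) at 3 weeks and 1.91 (SE 0.21, adjusted p = 0.000419) at 10 weeks.

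Atf4 itself, regulated in large part at translation, gave an answer that depended on the probe set. Its chosen probe set, 1438992_x_at, read 11.35, 11.41 and 11.27 in 3-week controls, 11.78, 11.84 and 11.43 in Tfr1-null libraries 2 to 4 and 11.04 in the library labelled Tfr1-null 1. The 10-week signals of this probe set were 12.39, 12.47 and 12.38 in controls 2 to 4, 13.17, 12.77 and 12.44 in Tfr1-null libraries and 12.98 in the library labelled control 1. Tfr1-null libraries lay above controls at 3 weeks by a narrow gap, and at 10 weeks Tfr1-null 3 lay within the controls. The differences of 0.34 (SE 0.17, adjusted p = 0.549) and 0.38 (SE 0.17, adjusted p = 0.184) did not pass the test. A second Atf4 probe set, 1448135_at, differed by 0.85 (SE 0.12, adjusted p = 0.00577 over all probe sets) at 3 weeks and 0.71 (SE 0.12, adjusted p = 0.00558) at 10 weeks, and the other, 1439258_at, by 0.13 and 0.05.

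Of the C/EBP partners, Cebpb differed by 0.70 (SE 0.22, adjusted p = 0.209) at 3 weeks and 0.62 (SE 0.22, adjusted p = 0.105) at 10 weeks, and Cebpg by 0.32 and 0.15. Nupr1, a small stress-induced nuclear protein, differed by 1.44 (SE 0.37, adjusted p = 0.105) at 3 weeks and -0.28 (SE 0.37, adjusted p = 0.697) at 10 weeks. Its 3-week values were 6.07, 6.14 and 6.06 in controls and 7.97, 7.64 and 6.96 in Tfr1-null libraries 2 to 4, which did not overlap. Its 10-week values overlapped, with 7.94 to 9.02 in controls 2 to 4 and 7.36 to 8.76 in Tfr1-null libraries.

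Of the 5 feedback and stress effectors, 4 were called higher at 3 weeks (all genes 0.682%) and 5 at 10 weeks (all genes 4.73%). Their median differences were 1.11 and 1.21. With all 14 libraries 0 of the 5 were called at either age. Chac1 encodes an enzyme that breaks down glutathione. In 3-week controls it read 8.60, 8.85 and 9.03, in Tfr1-null libraries 2 to 4 it read 10.67, 10.69 and 10.31, and the library labelled Tfr1-null 1 had 8.80. In 10-week controls 2 to 4 it read 9.24, 10.13 and 9.79, in Tfr1-null libraries 11.68, 11.36 and 11.01, and the library labelled control 1 had 11.67. The groups did not overlap at either age, and their means differed by 1.73 (SE 0.23, adjusted p = 0.00275) and 1.63 (SE 0.23, adjusted p = 0.00194), or 3.32-fold and 3.10-fold.

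Trib3 encodes the pseudokinase TRB3, an ATF4 and CHOP target that restrains both. Its signals at 3 weeks were 5.63, 6.32 and 5.93 in controls, 7.72, 7.28 and 7.63 in Tfr1-null libraries 2 to 4, and 6.04 in the library labelled Tfr1-null 1. At 10 weeks they were 7.40, 7.50 and 7.41 in controls 2 to 4, 8.86, 8.74 and 8.35 in Tfr1-null libraries, and 8.74 in the library labelled control 1. No control reached a Tfr1-null library, and the differences were 1.58 (SE 0.19, adjusted p = 0.00124) and 1.21 (SE 0.19, adjusted p = 0.00291). Sesn2 encodes sestrin 2, which restrains the growth kinase mTORC1 when leucine is short. It read 9.08, 9.03 and 8.91 in 3-week controls, 10.20, 10.03 and 10.03 in Tfr1-null libraries 2 to 4, and 8.92 in the library labelled Tfr1-null 1. At 10 weeks Sesn2 read 9.57, 9.52 and 9.64 in controls 2 to 4, 11.76, 11.29 and 10.93 in Tfr1-null libraries, and 11.24 in the library labelled control 1. Controls of Sesn2 lay close together at both ages, below all Tfr1-null libraries, and the gene differed by 1.08 (SE 0.17, adjusted p = 0.00658) at 3 weeks and 1.75 (SE 0.17, adjusted p = 0.000186) at 10 weeks.

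Ppp1r15a encodes GADD34, the subunit that directs a phosphatase to eIF2 and so ends the response. It read 7.81, 8.09 and 8.27 in 3-week controls, 9.63, 9.20 and 8.68 in Tfr1-null libraries 2 to 4, and 8.06 in the library labelled Tfr1-null 1. By 10 weeks the signals were 8.64, 8.68 and 8.68 in controls 2 to 4, 9.76, 9.73 and 9.33 in Tfr1-null libraries, and 9.94 in the library labelled control 1. The groups did not overlap, but Tfr1-null 4 at 3 weeks was close to the highest control. The differences were 1.11 (SE 0.22, adjusted p = 0.0258) and 0.93 (SE 0.22, adjusted p = 0.0200). The 3-week call was lost without any 1 of Tfr1-null 2 or 3 or controls 1, 2 or 3 of that age, with adjusted p from 0.0503 to 0.127, and the 10-week call without Tfr1-null 1 (adjusted p = 0.0636) or 2 (adjusted p = 0.0513). Eif4ebp1, which encodes the cap-binding inhibitor 4E-BP1, differed by 0.95 (SE 0.21, adjusted p = 0.0525) at 3 weeks and 0.79 (SE 0.21, adjusted p = 0.0377) at 10 weeks, and its 10-week call was lost in 8 of the 12 fits that leave out 1 library.

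**Figure D3:**
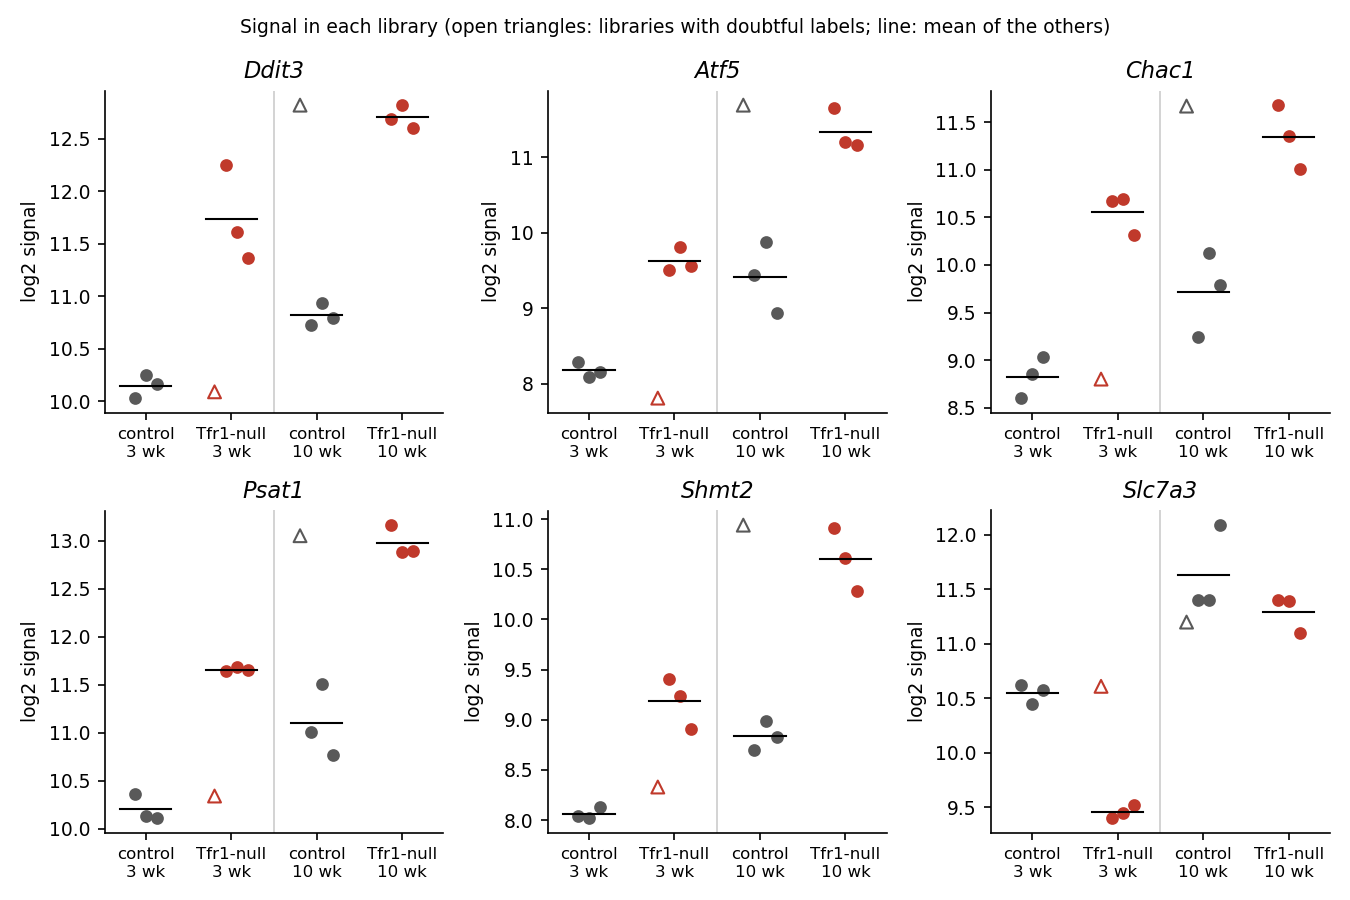
Log2 signal of 6 genes in each of the 14 libraries by labelled group (grey: control; red: Tfr1-null; line: mean without the doubtful pair, which is drawn as open triangles). In the 5 genes that rose, the open triangle of Tfr1-null at 3 weeks sits with the controls and that of control at 10 weeks with Tfr1-null, and Slc7a3 runs the other way at 3 weeks.

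Serine synthesis and the mitochondrial one-carbon pathway, which turns serine into glycine and formate for nucleotide and methyl supply, made up the largest block of enzymes that rose. Of its 6 enzymes 4 were called higher at 3 weeks (all genes 0.682%) and 5 at 10 weeks (all genes 4.73%). With all 14 libraries 0 of the 6 were called at either age. Psat1, the aminotransferase of the serine pathway, read 10.36, 10.13 and 10.11 in 3-week controls, 11.64, 11.68 and 11.65 in Tfr1-null libraries 2 to 4, and 10.34 in the library labelled Tfr1-null 1. At 10 weeks Psat1 read 11.01, 11.51 and 10.77 in controls 2 to 4, 13.16, 12.88 and 12.89 in Tfr1-null libraries, and 13.05 in the library labelled control 1. Tfr1-null libraries at 3 weeks were within 0.1 log2 units of one another and far above controls. Psat1 differed by 1.45 (SE 0.17, adjusted p = 0.00107) and 1.88 (SE 0.17, adjusted p = 0.000111), or 2.74-fold and 3.68-fold.

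Psph, the phosphatase of the last serine step, moved less. It read 7.35, 7.25 and 7.43 in 3-week controls, 8.09, 8.21 and 8.32 in Tfr1-null libraries 2 to 4, and 7.48 in the library labelled Tfr1-null 1. Psph at 10 weeks read 8.56, 8.77 and 8.69 in controls 2 to 4, 9.52, 9.00 and 9.32 in Tfr1-null libraries, and 9.42 in the library labelled control 1. The differences of 0.86 (SE 0.13, adjusted p = 0.00562) and 0.61 (SE 0.13, adjusted p = 0.0157) were small but well beyond the spread of controls. Phgdh, the dehydrogenase of the first step, differed by 0.54 (SE 0.23, adjusted p = 0.420) at 3 weeks and 1.02 (SE 0.23, adjusted p = 0.0178) at 10 weeks. Its 10-week call was lost without Tfr1-null 1 (0.92, SE 0.26, adjusted p = 0.0588).

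Shmt2, the mitochondrial enzyme that makes glycine from serine, read 8.04, 8.02 and 8.13 in 3-week controls, 9.41, 9.24 and 8.91 in Tfr1-null libraries 2 to 4, and 8.33 in the library labelled Tfr1-null 1. At 10 weeks Shmt2 read 8.70, 8.99 and 8.83 in controls 2 to 4, 10.91, 10.61 and 10.28 in Tfr1-null libraries, and 10.94 in the library labelled control 1. All Tfr1-null libraries lay above all controls, and the group means differed by 1.13 (SE 0.17, adjusted p = 0.00469) and 1.76 (SE 0.17, adjusted p = 0.000168). Mthfd2, the next mitochondrial folate enzyme, is little used by most adult tissues. It read 8.80, 9.05 and 8.83 in 3-week controls, 9.98, 9.98 and 10.07 in Tfr1-null libraries 2 to 4, and 8.71 in the library labelled Tfr1-null 1. At 10 weeks Mthfd2 read 9.79, 10.06 and 10.34 in controls 2 to 4, 11.03, 10.87 and 10.78 in Tfr1-null libraries, and 11.25 in the library labelled control 1. Its groups did not overlap at either age, and their means differed by 1.12 (SE 0.14, adjusted p = 0.00148) and 0.83 (SE 0.14, adjusted p = 0.00392).

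Mthfd1l, which releases formate in mitochondria, differed by 0.63 (SE 0.53, adjusted p = 0.833) and 0.23 (SE 0.53, adjusted p = 0.838). Control 10 weeks 3 read 12.12, far above controls 2 and 4 at 9.53 and 9.67 and above the Tfr1-null libraries at 10.54 to 10.77. Without that library Mthfd1l differed by 1.07 (SE 0.16, adjusted p = 0.0036) at 10 weeks.

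The 5 other amino acid enzymes moved less, with 0 called at 3 weeks (all genes 1.84%) and 1 at 10 weeks (all genes 11.1%). Got1, the cytosolic aspartate aminotransferase of the malate-aspartate shuttle, was the gene called with all 14 libraries. At 3 weeks Got1 read 13.03, 13.02 and 12.96 in controls, 13.00, 13.00 and 13.03 in Tfr1-null libraries 2 to 4, and 13.05 in the library labelled Tfr1-null 1. At 10 weeks the signals were 13.41, 13.45 and 13.75 in controls 2 to 4, 14.05, 13.98 and 14.06 in Tfr1-null libraries, and 13.65 in the library labelled control 1. Here the library labelled control 10 weeks 1 lay among the controls, unlike in the other 15 genes called at 10 weeks. Got1 differed by 0.49 (SE 0.10, adjusted p = 0.0106) at 10 weeks with 12 libraries and by 0.46 (SE 0.09, adjusted p = 0.0378) with 14, and by 0.01 at 3 weeks. The 14-library call was lost in 10 of the 14 fits that leave out 1 library.

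Asns, which makes asparagine and is a classic ATF4 target, differed by 0.34 (SE 0.11, adjusted p = 0.198) and 0.32 (SE 0.11, adjusted p = 0.0821). A second Asns probe set, 1451095_at, differed by 0.32 (SE 0.11, adjusted p = 0.282 over all probe sets) at 3 weeks and 0.75 (SE 0.11, adjusted p = 0.00224) at 10 weeks. Gpt2, the mitochondrial alanine aminotransferase, differed by 0.51 (SE 0.21, adjusted p = 0.390) and 0.60 (SE 0.21, adjusted p = 0.0930). The transsulfuration enzymes, which make cysteine from homocysteine, gave little: Cbs differed by -0.25 and 0.34, and Cth was not above background in any 3-week library and differed by 0.39 (SE 0.24, adjusted p = 0.338) at 10 weeks.

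Among the 8 transporters, Slc7a5 rose at both ages, Slc6a9 rose at 10 weeks and Slc7a3 fell at 3 weeks. Slc7a5 encodes the light chain of the large neutral amino acid transporter, which also carries the dopamine precursors tyrosine and L-DOPA. It read 9.70, 9.66 and 9.62 in 3-week controls, 10.57, 10.44 and 10.41 in Tfr1-null libraries 2 to 4, and 9.71 in the library labelled Tfr1-null 1. At 10 weeks Slc7a5 read 11.03, 10.99 and 11.13 in controls 2 to 4, 12.14, 11.95 and 11.43 in Tfr1-null libraries, and 12.00 in the library labelled control 1. The groups did not overlap at either age, with differences of 0.81 (SE 0.15, adjusted p = 0.0217) and 0.79 (SE 0.15, adjusted p = 0.00925). Its 3-week call was lost without any 1 library of that age, where the difference stayed between 0.77 and 0.85 and adjusted p ran from 0.0655 to 0.111. Slc3a2, the heavy chain that partners Slc7a5 and the cystine transporter Slc7a11, differed by 0.35 (SE 0.15, adjusted p = 0.446) and 0.41 (SE 0.15, adjusted p = 0.114).

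Slc7a3, a carrier of cationic amino acids such as arginine, was the 1 gene that fell. At 3 weeks it read 10.62, 10.45 and 10.58 in controls, 9.40, 9.45 and 9.52 in Tfr1-null libraries 2 to 4, and 10.61 in the library labelled Tfr1-null 1. At 10 weeks Slc7a3 read 11.40, 11.40 and 12.09 in controls 2 to 4, 11.40, 11.39 and 11.10 in Tfr1-null libraries, and 11.20 in the library labelled control 1. The 3-week groups were about 1 log2 unit apart, and the 10-week groups met at 11.40. The Slc7a3 difference was -1.10 (SE 0.17, adjusted p = 0.00668) at 3 weeks and -0.33 (SE 0.17, adjusted p = 0.254) at 10 weeks. Its relative Slc7a1, a broader cationic carrier, differed the other way by 0.58 (SE 0.16, adjusted p = 0.128) and 0.49 (SE 0.16, adjusted p = 0.0766). Both other Slc7a1 probe sets differed more at 10 weeks. Probe set 1454992_at differed by 0.69 (SE 0.14, adjusted p = 0.0498 over all probe sets) and 1.06 (SE 0.14, adjusted p = 0.00163), and 1421533_at by 0.56 (SE 0.20, adjusted p = 0.361) and 1.70 (SE 0.20, adjusted p = 0.000841).

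Slc6a9, the glycine transporter, differed by 0.42 (SE 0.13, adjusted p = 0.201) at 3 weeks and 0.57 (SE 0.13, adjusted p = 0.0190) at 10 weeks, where the call was lost without Tfr1-null 1 (adjusted p = 0.0518). Slc7a11, the cystine carrier of glutathione synthesis, differed by 0.40 (SE 0.34, adjusted p = 0.836) and 0.65 (SE 0.34, adjusted p = 0.258). Slc1a4, a carrier of serine, alanine and cysteine, differed by 0.25 and 0.23, while its probe sets 1423549_at and 1423550_at differed by 0.95 (SE 0.12, adjusted p = 0.00098 over all probe sets) and 1.04 (SE 0.23, adjusted p = 0.0190) at 10 weeks. Slc38a2, a carrier of small neutral amino acids, differed by -0.02 and 0.06.

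Of the 3 secreted or surface products, Vldlr rose at both ages. Vldlr encodes a receptor for lipoproteins and reelin. It read 10.83, 10.86 and 10.92 in 3-week controls, 11.73, 11.37 and 11.58 in Tfr1-null libraries 2 to 4, and 10.99 in the library labelled Tfr1-null 1. At 10 weeks Vldlr read 12.05, 11.47 and 11.87 in controls 2 to 4, 12.76, 12.68 and 12.76 in Tfr1-null libraries, and 12.67 in the library labelled control 1. With all libraries as labelled, every Tfr1-null library still lay above every control at both ages, but by narrow gaps. The nearest values were 10.99 against 10.92 at 3 weeks and 12.68 against 12.67 at 10 weeks. The 14-library differences, 0.55 (SE 0.23) at 3 weeks and 0.72 (SE 0.23, adjusted p = 0.12) at 10 weeks, did not pass the test. The 12-library differences were 0.69 (SE 0.14, adjusted p = 0.0372) and 0.94 (SE 0.14, adjusted p = 0.00276). The 3-week call was lost in 6 of the 12 fits that leave out 1 library: Tfr1-null 2 or 4 or control 1, 2 or 3 of that age, or Tfr1-null 10 weeks 3, with adjusted p from 0.0534 to 0.176. Fgf21, a hormone that liver and muscle secrete under mitochondrial stress, differed by 0.07 and -0.04.

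Stc2, a secreted glycoprotein induced by endoplasmic reticulum stress, turned most on the probe set. Its chosen probe set, 1419503_at, differed by 0.80 (SE 0.19, adjusted p = 0.0601) at 3 weeks and 0.54 (SE 0.19, adjusted p = 0.0880) at 10 weeks. Probe set 1449484_at read 3.91, 4.25 and 4.49 in 3-week controls, close to the 25th percentile of the array, 8.06, 7.72 and 7.33 in Tfr1-null libraries 2 to 4, and 4.58 in the library labelled Tfr1-null 1. At 10 weeks this probe set read 6.46, 5.50 and 6.90 in controls 2 to 4, 9.53, 9.32 and 9.47 in Tfr1-null libraries, and 8.59 in the library labelled control 1. These groups lay at least 2 log2 units apart, and the differences were 3.49 (SE 0.31, adjusted p = 0.000365 over all probe sets) and 3.15 (SE 0.31, adjusted p = 0.000282). Probe set 1445186_at differed by 2.93 (SE 0.50, adjusted p = 0.0161) and 2.34 (SE 0.50, adjusted p = 0.0159).

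Of the 33 genes, 22 had more than 1 probe set, 72 in all. When each of 34945 probe sets was tested on its own, an alternative added after the data were seen, 16 genes had at least 1 called probe set at 3 weeks (background 1.08% of probe sets) and 23 at 10 weeks (9.33%). Atf4, Slc7a1 and Stc2 were added at 3 weeks, and at 10 weeks Asns, Cebpg, Gpt2 and Slc1a4 as well. A gene with several probe sets had more chances to be counted here. For the genes called with the chosen probe set, the other probe sets differed in the same direction in 12 of 13 cases at 3 weeks and 19 of 19 at 10 weeks. The exception was Ddit3 probe set 1443897_at, at -0.04. It read 4.58 to 5.01 in the 3-week libraries, close to the 25th percentile of those arrays, 4.33 to 4.41. The sequences of these probes were not used here.

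**Figure D4:**
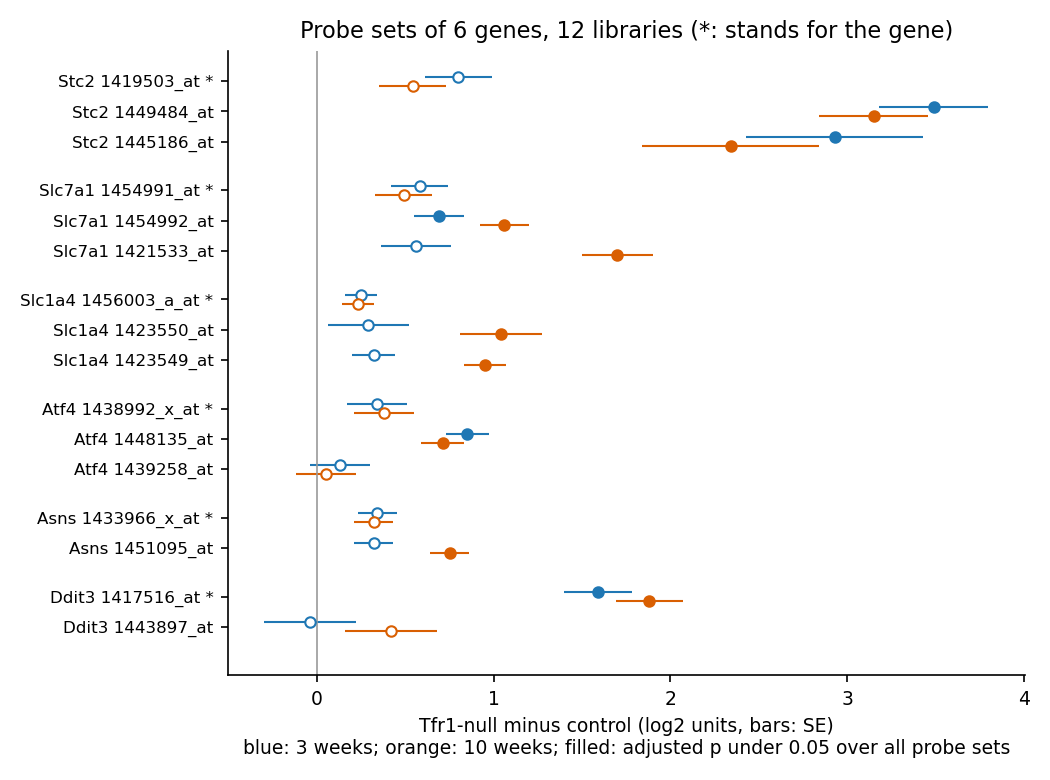
Tfr1-null minus control in log2 units with SE for each probe set of 6 genes, from the 12 libraries (blue: 3 weeks; orange: 10 weeks; filled: adjusted p under 0.05 over all probe sets; asterisk: the probe set that stands for the gene). In Stc2, 1449484_at lies at 3.49 and 3.15 where the chosen probe set lies at 0.80 and 0.54.

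Across ages, 12 genes were called higher at both: Atf5, Chac1, Ddit3, Mthfd2, Ppp1r15a, Psat1, Psph, Sesn2, Shmt2, Slc7a5, Trib3 and Vldlr. These were 92.3% of the 13 called at 3 weeks and 75.0% of the 16 called at 10 weeks. The matching shares over all genes are not given here, so this overlap may not be particular to these genes. Eif4ebp1, Got1, Phgdh and Slc6a9 were called at 10 weeks alone and Slc7a3 at 3 weeks alone, but none of the 33 was called for the difference between the ages, with 12 libraries (background 0.286%) or with 14 (0.0%). At an unadjusted p under 0.05 the difference between ages gave 6 of 33 with 12 libraries (all genes 12.2%) and 2 of 33 with 14 (all genes 7.48%). The largest was that of Nupr1, -1.72 (SE 0.53, adjusted p = 0.219), then Slc7a3 with 0.76 (adjusted p = 0.234) and Sesn2 with 0.67 (adjusted p = 0.290). The differences had one sign at both ages in 29 of 33 genes, a count without its share over all genes. The Pearson correlation of the differences was 0.73 across the 33 genes, against 0.51 across all genes, where genes are not independent. The comparisons at 3 and 10 weeks share no libraries, though the spread of each gene was estimated from both ages together.

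**Figure D5:**
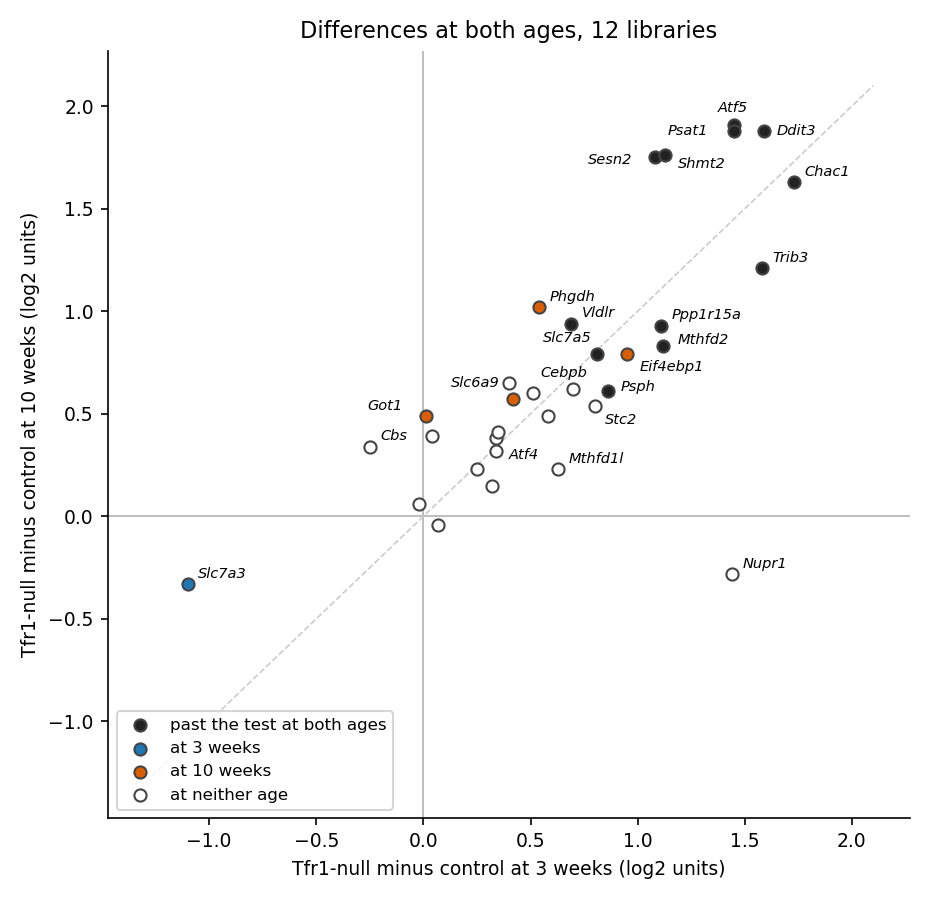
Tfr1-null minus control at 10 weeks (vertical) against 3 weeks (horizontal) in log2 units for the 33 genes, from the 12 libraries (black: called at both ages; blue: 3 weeks; orange: 10 weeks; open: neither; dashed line: equal differences). Nupr1, at 1.44 and -0.28, lies farthest from the line.

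The rest of the pathway was read from companion lists. Of 21 measured genes upstream of eIF2 (kinases, eIF2 subunits and exchange factors), 0 rose and 1 fell at 3 weeks (all genes 1.84% called), and 3 rose and 4 fell at 10 weeks (all genes 11.1%), with medians of 0.01 and 0.10. Eif2ak2, the kinase that senses double-stranded RNA, fell by 1.07 at 3 weeks (SE 0.17, adjusted p = 0.00611) and fell by 0.66 at 10 weeks (adjusted p = 0.0285). Eif2ak3, the endoplasmic reticulum kinase PERK, differed by 0.21 (adjusted p = 0.696) at 3 weeks and 0.55 (SE 0.13, adjusted p = 0.0207) at 10 weeks. The others called at 10 weeks were Gcn1 (0.64) and Eif2s2 (0.47), which rose, and Eif2b4 (-0.62), Oma1 (-0.60) and Eif2b2 (-0.42), which fell. Transcripts of the kinases do not report on their activity, and no phosphorylation was measured.

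Of 26 other regulators and targets of ATF4 and CHOP, 4 rose and 0 fell at 3 weeks (all genes 0.682% higher), and 10 rose and 0 fell at 10 weeks (all genes 4.73% higher). Atf3, a stress-induced factor, read 5.95, 5.73 and 5.44 in 3-week controls and 10.92, 10.43 and 9.82 in Tfr1-null libraries 2 to 4, with 5.99 in the library labelled Tfr1-null 1. At 10 weeks Atf3 read 4.98, 5.03 and 4.64 in controls 2 to 4, not above background, and 12.04, 12.54 and 11.67 in Tfr1-null libraries, with 12.00 in the library labelled control 1. The difference was 4.69 (SE 0.28, adjusted p = 2.07e-05) at 3 weeks and at least 6.59 log2 units at 10 weeks (adjusted p = 2.72e-07), beyond that of any of the 33 genes. Lonp1, the mitochondrial matrix protease, rose by 0.64 (SE 0.12, adjusted p = 0.0242) and 1.19 (SE 0.12, adjusted p = 0.000255), and Gadd45a, a DNA damage and stress gene, differed by 0.64 (adjusted p = 0.202) at 3 weeks and 1.52 (SE 0.20, adjusted p = 0.00112) at 10 weeks. The others called at 3 weeks were Ero1a (1.04), an oxidase of the endoplasmic reticulum, and Herpud1 (0.97), a part of its degradation machinery. Xpot, which exports tRNA from the nucleus, differed by 0.28 (adjusted p = 0.202) at 3 weeks and 0.60 (SE 0.09, adjusted p = 0.00233) at 10 weeks.

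The wider amino acid genes were called at 10 weeks about as often as all genes tested (11.1%). Of 24 other measured enzymes, 0 were called at 3 weeks and 2 rose at 10 weeks: Srr, which makes D-serine, by 0.97 (SE 0.19, adjusted p = 0.0099), and Pck2, the mitochondrial phosphoenolpyruvate carboxykinase, by 0.52 (SE 0.13, adjusted p = 0.0257). Of 32 other amino acid transporters, 0 were called at 3 weeks, and at 10 weeks 1 rose, Slc7a14 by 1.01 (SE 0.19, adjusted p = 0.00861), and 3 fell: Slc38a4 by 1.17, Slc7a8 by 1.00 and Slc43a2 by 0.59. With all 14 libraries, 1 gene of these 4 lists was called in either comparison, Srr at 10 weeks with 0.88 (SE 0.19, adjusted p = 0.0455).

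Of the marker lists, the dopaminergic one held the most called genes at 10 weeks. The counts of the other lists, 0 or 1 gene each, are to be read beside the 1.84% of all genes called at 3 weeks and 11.1% at 10 weeks. Of 16 dopaminergic markers, 0 were called at 3 weeks and 5 fell at 10 weeks: Foxa1 by 0.86, Drd2 by 0.85, Chrna6 by 0.52, Ddc by 0.32 and Aldh1a1 by 0.28. The summed linear signal of the list was 182306 to 193827 in 10-week controls 2 to 4 and 146304 to 171241 in Tfr1-null libraries. Of 12 microglial markers 1 rose, Cd68, which also marks lysosomes in other cells, by 2.01 (adjusted p = 7.87e-05) at 3 weeks and 3.87 (adjusted p = 2.72e-07) at 10 weeks. The microglial sum was 2308 to 2567 in controls and 2163 to 3202 in Tfr1-null libraries 2 to 4 at 3 weeks, and 3375 to 5116 in controls 2 to 4 and 5698 to 8642 in Tfr1-null libraries at 10 weeks. Cd68 is part of this sum, and at 10 weeks it read 6.46, 6.85 and 6.44 in controls 2 to 4. In Tfr1-null libraries of that age it read 10.51, 10.65 and 10.22. The sum without Cd68 is not given here, so the gap at 10 weeks may rest on this gene. Of 12 astrocyte markers 0 were called at 3 weeks and 1, Sox9 with 1.14 (adjusted p = 0.0327), at 10 weeks, with sums of 29115 to 34822 in controls 2 to 4 and 32340 to 40337 in Tfr1-null libraries. Of the astrocyte and microglial markers 0 were under background in every library. Of 6 GABAergic markers 1 was called higher at 10 weeks, Slc32a1 with 0.70 (adjusted p = 0.0071), and of the oligodendrocyte, precursor, vascular and glutamatergic markers 0 were called at either age. The part of these other cells in the differences above was not tested.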

How the data were processed

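The deposited values were log2 signals of 45101 probe sets in 14 libraries, made by the authors with robust multi-array averaging (RMA) in Partek 6.5, per the submitters' processing notes. No raw scans were used. Probe sets with 1 gene symbol, 34945 after control probe sets were left out, covered 18193 genes, and the one with the highest average signal across the arrays stood for a gene. Groups follow title and genotype. limma 3.58.1 in R 4.3.3 (lmFit and eBayes, default settings) fitted a mean for each of 4 groups, with Benjamini-Hochberg adjustment of each contrast across the 18193 genes, and adjusted p under 0.05 counted as called. SE is the moderated standard error of a contrast. Residual degrees of freedom were 10 with 14 libraries and 8 with 12, and the small number of arrays limits the precision. The script was tested on simulated data.

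The genes, companion lists and marker lists were chosen with earlier results of these data known, as was the 12-library fit. The background limit, the 25th percentile of each array, was also chosen after the data were seen. Where all values of a group lay under it, the difference was taken from that limit and written as a lower bound. All genes are named, with values in every library for Atf4, Ddit3, genes called at both ages, genes called with 14 libraries and genes called lower. Companion genes are up to 4 called per list with the smallest p, and where 5 or fewer were called the rest were named after their values were seen. Library values of Nupr1, Mthfd1l, Stc2 and Atf3 were added after they were seen. Alternatives were the probe set, a filter on dim genes, quantile and median scaling, 1 age alone, a trended robust prior, array weights, a replicate block, a threshold of 0.01 and leaving out each library. Promoters are RefSeq windows on GRCm38.p6. Tables and plots used Python 3.11.15, pandas 2.3.3, numpy 2.4.6 and matplotlib 3.10.9.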

Additional observations from a re-analysis of the deposited data

Results flagged for a closer look

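A value is listed where, in a group of 4 libraries, the highest or the lowest stood apart from the rest by more than Dixon's critical value for 4 values. Chance alone gives about 1 in 20 groups. Of the 33 genes, 6 met this in the Tfr1-null group at 3 weeks and 8 in the control group at 10 weeks. The share of all genes that met it in these groups is not given here, so these counts have no background of their own. Whether they are particular to the 33 genes was not tested.

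In the Tfr1-null group at 3 weeks, 5 of the 6 were values of the library labelled Tfr1-null 1. Atf5 read 7.81 there against 9.51 to 9.81 in the others, Sesn2 8.92 against 10.03 to 10.20, Psat1 10.34 against 11.64 to 11.68, and Mthfd2 8.71 against 9.98 to 10.07. Slc7a3 read 10.61 there against 9.40 to 9.52. The other was Slc7a11 in Tfr1-null 3, at 6.68 against 5.70 to 5.72.

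In the control group at 10 weeks, all 8 were values of the library labelled control 1. Atf4 read 12.98 against 12.38 to 12.47 in the other controls, Ddit3 12.82 against 10.73 to 10.94, Ppp1r15a 9.94 against 8.64 to 8.68, and Trib3 8.74 against 7.40 to 7.50. Sesn2 read 11.24 against 9.52 to 9.64, Shmt2 10.94 against 8.70 to 8.99, Slc7a5 12.00 against 10.99 to 11.13, and Slc6a9 12.09 against 11.38 to 11.49.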

How the results depend on the processing

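Counts are of the 33 genes called. The share of all genes called under each alternative is not given here, so a changed count may not be particular to these genes. With 14 libraries at 3 weeks (0), array weights gave 12 and leaving out 1 library 0 to 1. With 14 at 10 weeks (1), the libraries of that age alone, array weights and an adjusted p under 0.01 each gave 0, probe sets tested on their own (added after the data were seen) gave 2, and leaving out 1 library gave 0 to 11, with 11 without the library labelled control 10 weeks 1. With 12 at 3 weeks (13), array weights gave 23, probe sets on their own 16, keeping the library labelled Tfr1-null 3 weeks 1 gave 0 and keeping the library labelled control 10 weeks 1 gave 1, and leaving out 1 library gave 10 to 14. With 12 at 10 weeks (16), that age alone gave 7, adjusted p under 0.01 gave 10 and array weights gave 11. For the same contrast, keeping the library labelled control 10 weeks 1 gave 1 and keeping the library labelled Tfr1-null 3 weeks 1 gave 11. Leaving out 1 library gave 12 to 17 there. For the difference between ages leaving out 1 library gave 0 to 1 with 12 libraries. The cause of these changes was not tested. Of the genes called with 12 libraries, 10 of 13 at 3 weeks and 12 of 16 at 10 weeks stayed called in each of the 12 fits that leave out 1 library. No called gene changed direction in the alternatives run, other than Ddit3 at 3 weeks read with probe set 1443897_at (-0.04). That probe set read close to the 25th percentile of the 3-week arrays.

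The replicate numbers do not pair libraries by the labels or the data (correlations of same-numbered libraries from -0.078 to 0.088). As a replicate block they gave 0 calls with 14 libraries at either age, and 11 at 3 weeks and 12 at 10 weeks with 12 libraries. Under the block, Cbs at 3 weeks with 14 libraries was 0.021, Got1 at 3 weeks -0.016 (14) and -0.040 (12), and Slc38a2 -0.016 (10 weeks, 14), 0.043 (3 weeks, 12) and 0.000 (10 weeks, 12), all turned in sign.

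Other turns of sign were in genes that were not called in the main fit. Cbs, Cth, Fgf21, Got1 and Slc38a2 lay near 0 there. Gpt2, Mthfd1l and Nupr1 at 10 weeks lay farther from 0 and ranged widely with the library left out. Slc38a2 was -0.111 with the mean of its probe sets (10 weeks, 14 libraries), 0.011 with median centring and 0.026 with the library labelled Tfr1-null 3 weeks 1 kept (3 weeks, 12). Cth at 3 weeks was 0.024 with array weights (14) and -0.025 with that library kept (12). Leaving out 1 library with 14 gave, at 3 weeks, Cbs -0.252 to 0.023, Cth -0.075 to 0.039, Fgf21 -0.020 to 0.207, Got1 -0.004 to 0.031 and Slc38a2 -0.016 to 0.087, and at 10 weeks Fgf21 -0.120 to 0.025, Gpt2 -0.041 to 0.603, Mthfd1l -0.147 to 0.717, Nupr1 -0.491 to 0.208 and Slc38a2 -0.039 to 0.117. With 12 it gave, at 3 weeks, Cth -0.010 to 0.077, Fgf21 -0.014 to 0.213, Got1 -0.014 to 0.022 and Slc38a2 -0.093 to 0.055, and at 10 weeks Fgf21 -0.105 to 0.040, Mthfd1l -0.230 to 1.066, Nupr1 -0.629 to 0.070 and Slc38a2 -0.019 to 0.215. Signals near the 25th percentile of an array, as of Cth and Fgf21, limit what could be seen.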
